A study of Mus musculus with 35 samples.

Results

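The genes described here encode 39 histone lysine methyltransferases, demethylases and close partners other than Dot1l, chosen by name and found by symbol among the 52636 genes of a count table from mouse CD8 T cells. Of the 39, 38 had enough counts to be among the 10296 genes tested, and Suv39h2 did not. The question asked of them was whether other histone lysine modifiers differed in cells in which Dot1l was deleted. RNA was sequenced from sorted CD8 T cells of C57BL/6 mice in 35 libraries of 9 groups, 4 libraries each except 3 for WT thymus. Every animal carried 1 copy of a Cre transgene that the labels call Lcre, so WT libraries (Lcre+/-;Dot1Lwt/wt) are Cre-positive with unmodified Dot1L, Het libraries (Lcre+/-;Dot1Lfl/wt) have 1 floxed allele and KO libraries (Lcre+/-;Dot1Lfl/fl) have 2. The promoter that drives Lcre, the animals' ages and any pooling are not given in the labels. Each genotype was sampled from the thymus (CD8 single positive cells) and from the spleen, sorted there into naive (CD44-, CD62L+) and memory (CD44+, CD62L+) cells.

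Histone lysine methylation is written by SET-domain enzymes, each with a preferred residue, and erased by the flavin-dependent enzyme LSD1 and the Jumonji family. Methylation of H3K4 and H3K36 accompanies active promoters, enhancers and transcribed gene bodies, and methylation of H3K9, H3K27 and H4K20 accompanies silenced or compacted chromatin. Dot1l is the methyltransferase of H3K79, has no SET domain, and lies outside both families.

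Values are library-scaled counts (CPM), given per library or as mean ± SD, and differences are log2 fold changes ± standard error from edgeR, called at an adjusted p under 0.05 over all tested genes. Whether all replicates are separate animals is not labelled. By sex-linked transcripts each group held male and female libraries, so no group came from a single animal. Each p measures spread among the libraries at hand, part of which may be technical. In bulk samples, fewer cells of a type and less RNA per cell cannot be told apart. Total counts ran from 4809509 to 16879636 per library (median 10406516). Dot1l itself, in CPM, was at 67 ± 5.20, 69.2 ± 4.41 and 77.2 ± 1.68 in WT, Het and KO thymus libraries, at 49.4 ± 2.08, 52.1 ± 2.79 and 55.6 ± 1.26 in naive libraries, and at 45.4 ± 5.81, 47.5 ± 4.72 and 45.7 ± 1.88 in memory libraries (n = 4, and 3 for WT thymus). The KO libraries were thus not below WT in Dot1l, but no label names the floxed exons and reads are summed over the full gene, which leaves the deletion unchecked. Of the CD8 T cell markers, all 10 had counts in each group, but Cd8a (group means 5.02 to 11.3 CPM) and Cd3d (1.24 to 2.51) were low beside Lck (895 to 1062). Some abundant transcripts thus had few counts, so order between genes is a property of this table and not a safe measure of RNA amount.

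Per kilobase of exon, the members' levels in WT libraries spanned about 3 orders of magnitude. Kmt2d, which encodes an enhancer H3K4 monomethyltransferase, stood highest, with group means of 173, 250.3 and 227 CPM per kb in WT thymus, naive and memory libraries. Kmt2e, a SET-domain protein of the same family, came next in naive and memory cells and after Kdm6b in thymus, at 58.5, 73.8 and 71.4 CPM per kb. The lowest were Setdb2, an H3K9 methyltransferase, at 0.524, 0.418 and 0.486 CPM per kb, and Suv39h2. Suv39h2, the paralog of Suv39h1, ran from 0 to 1.23 CPM over the 35 libraries, with at most 18 counts in a library, and is not taken further.

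Within a gene, most members varied little over the 9 group means. Nsd2 had the widest span of the tested members, from 26.3 CPM in KO naive to 226 in KO thymus libraries. Suv39h1 ran from 28.2 in WT memory to 66.1 in KO thymus, Kdm5b from 91.99 in KO thymus to 204 in WT thymus, and Kdm6b from 213 in Het memory to 431 in WT thymus. Kdm2a, an H3K36 demethylase that binds CpG islands, was the steadiest, between 590.1 and 647 CPM, followed by Setd5 (809.9 to 925) and Setd2 (513 to 593). Among the H3K4 enzymes, Kmt2a ran from 647 to 1070.5 CPM, Kmt2d from 3185 to 5123 and Setd1b from 227 to 376, with the lowest mean in a thymus group and the highest in a naive group each time. Men1 (92.2 to 149), Setdb1 (140.2 to 210.0) and Ehmt2 (110.4 to 147) were instead highest in thymus and lowest in memory groups. The KO thymus group held the lowest mean of 18 of the 38 tested members. How many of all tested genes were lowest there was not counted, so this is not read as a trait of the members.

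**Figure D1:**
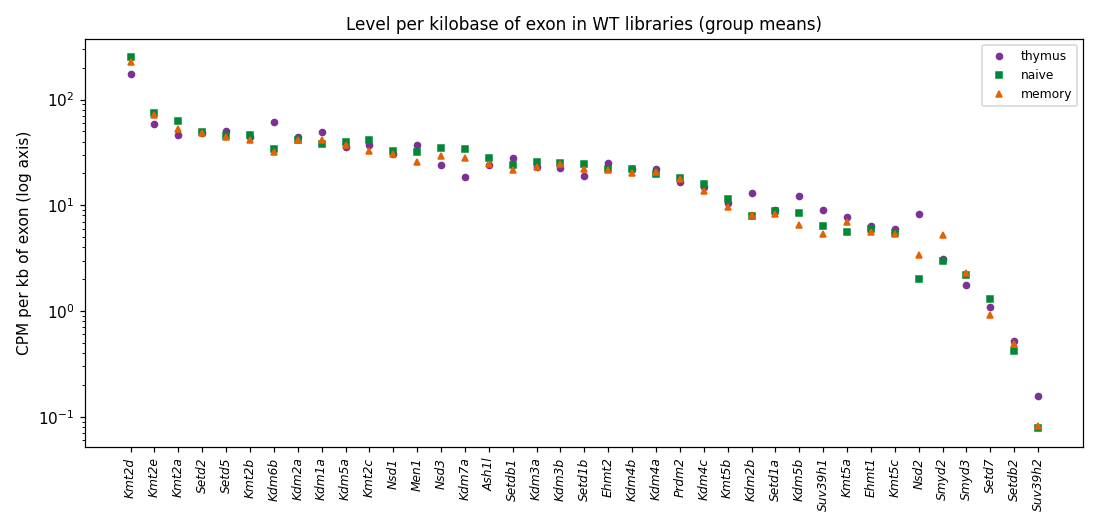
Mean level per kilobase of exon (log axis, CPM per kb) of each of the 39 members in WT thymus, naive and memory libraries, ordered by the mean over all groups. Kmt2d is highest in all 3 subsets, and Nsd2, Kdm6b and Kdm7a show the widest separation of thymus from naive cells among members above 1 CPM per kb.

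Members changed in KO against WT libraries in both directions, and most called changes were below 1.5-fold. In thymus 4 members were called higher and 11 lower, against 11.9% and 6.77% of all tested genes. As shares of the 38 these are 10.5% and 28.9%, so the higher calls were near the background and the lower calls above it. The members were chosen with earlier results of these data known, so these shares describe the list and test nothing. In naive cells 4 were called higher and 3 lower, which as 10.5% and 7.89% is near the background of 11.1% and 7.11%. In memory cells 5 were called higher and 5 lower, 13.2% each, against 12.8% and 9.32% of all genes. The higher calls fell to 3 without WT memory replicate 1 or KO memory replicate 4. Across tested members the median log2 fold change in those 3 subsets, in the same order, was -0.11, 0.03 and -0.01, beside 0.02, 0.00 and 0.01 over all tested genes. Members are long, with a median of 9596 exonic bases against 4636 for tested genes, and long genes were called more often. Among the 2016 tested genes over 8000 exonic bases, 11.7%, 9.87% and 12.3% were called lower in thymus, naive and memory cells, and 14.5%, 16.3% and 17.3% higher, which is above the members' shares of higher calls.

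Of the 38 tested members, 5 were called in all 3 subsets, 2 in naive and memory cells, 13 in 1 subset and 18 in none. The same split over all tested genes was not counted, so no background stands beside it. Centring each library on its mean log level instead of TMM scaling moved the median of all genes to -0.09, -0.11 and -0.10 (log2). The calls then became 4 higher and 18 lower in thymus (8.61% and 13% of all genes), 3 and 7 in naive (8.61% and 15.7% of all genes) and 2 and 11 in memory cells (9.9% and 17.6% of all genes). As 18.4% of 38, the 7 lower members in naive cells were near that background. Called lower with this centring and not with TMM scaling were Kmt2a, Kmt2b, Kmt2e, Ash1l, Kdm1a, Kdm2a and Kdm3b in thymus. In naive cells these were Kmt2a, Nsd2, Kdm4c and Kdm7a, and in memory cells Kmt2a, Setdb2, Ehmt2, Nsd2, Kdm4a and Kdm5b. The direction of each called member stayed the same under every scaling run.

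**Figure D2:**
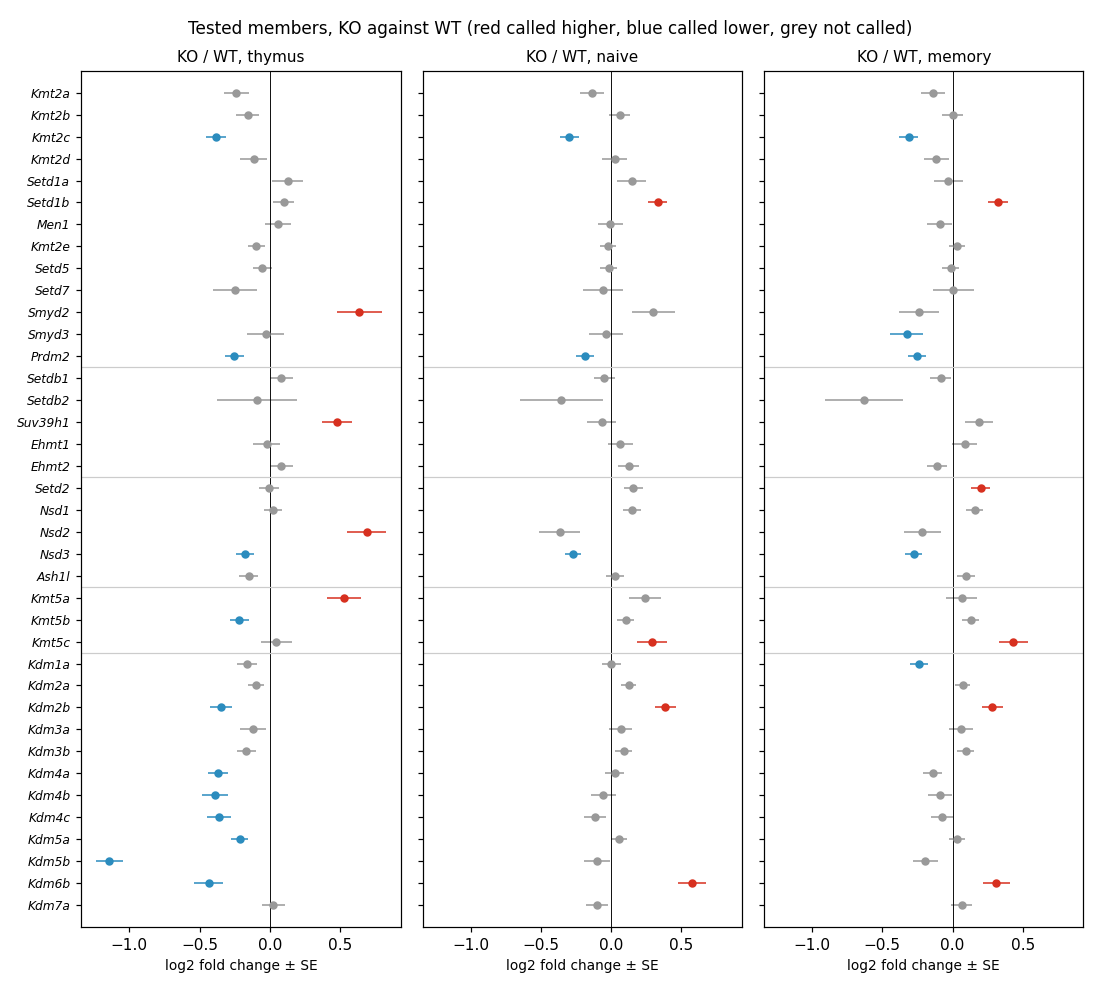
Log2 fold change ± SE of KO against WT for the 38 tested members in thymus, naive and memory cells, with grey lines between H3K4 methyltransferases and related genes, H3K9, H3K36 and H4K20 methyltransferases and demethylases. Kdm5b in thymus is the largest change, at -1.14, and Kdm2b and Kdm6b lie left of 0 in thymus and right of it in both spleen subsets.

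Among the 6 H3K4 methyltransferases, Kmt2c fell in all 3 subsets and Setd1b rose in both spleen subsets. Kmt2c encodes the MLL3 enzyme, which with Kmt2d places H3K4 monomethylation at enhancers (chr5:25271798-25498783, minus strand, ENSMUSG00000038056, GRCm38). Kmt2c was at 762, 793 and 687 CPM in the WT, 739, 772, 744 and 640.1 in the Het and 612, 557, 595 and 531 in the KO thymus libraries. In naive libraries it was at 815, 875, 801 and 848 CPM in the WT, 769, 835, 870.1 and 835 in the Het and 699, 748, 630.3 and 636 in the KO libraries. In memory libraries it was at 666, 691, 655 and 659 CPM in the WT, 602, 708, 671 and 733 in the Het and 562, 574, 518 and 494 in the KO libraries. In each subset all KO libraries were below all WT and all Het libraries. The log2 fold changes of KO against WT were -0.38 ± 0.07 (adjusted p = 9.75e-05) in thymus, -0.30 ± 0.07 (adjusted p = 0.000846) in naive and -0.31 ± 0.07 (adjusted p = 0.000356) in memory cells. Its paralog Kmt2d did not pass the test in any subset, with differences of -0.11 ± 0.10, 0.02 ± 0.09 and -0.12 ± 0.09.

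Setd1b, a catalytic subunit of the COMPASS complex that makes promoter H3K4 trimethylation (chr5:123142193-123168629, plus strand, ENSMUSG00000038384), showed the opposite direction. In naive libraries Setd1b was at 309, 311, 299 and 278 CPM in the WT, 317, 294, 343 and 355 in the Het and 353, 379, 387 and 385 in the KO libraries. In memory libraries it was at 255, 298, 260.5 and 253 CPM in the WT, 249.8, 311, 268 and 305 in the Het and 332, 324, 342 and 339 in the KO libraries. The KO values were above every WT value in both subsets, while the Het groups reached into the KO range only in naive cells. The log2 fold changes against WT were 0.33 ± 0.07 (adjusted p = 0.000489) and 0.33 ± 0.07 (adjusted p = 0.000416). In thymus the 11 libraries lay between 204 and 253 CPM with overlapping genotypes, a difference of 0.10 ± 0.08 that did not pass the test. Its paralog Setd1a did not pass in any subset, at 0.13 ± 0.11, 0.15 ± 0.10 and -0.03 ± 0.10, and shares 3552 exonic bases with the model Gm49388 on the same strand, so its counts are uncertain. Kmt2a and Kmt2b, the MLL1 and MLL2 enzymes, did not pass either. Kmt2a gave -0.24 ± 0.09, -0.14 ± 0.08 and -0.14 ± 0.08, with the thymus value at an adjusted p of 0.0655. That value passed in 6 alternatives, among them mean log centring (0.0146) and the fit without WT thymus replicate 3 (0.0244) or KO thymus replicate 3 (0.0226). Kmt2b gave -0.16 ± 0.08, 0.06 ± 0.08 and 0.00 ± 0.07.

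The genes grouped with them as partners or other lysine methyltransferases were Men1, Kmt2e, Setd5, Setd7, Smyd2, Smyd3 and Prdm2. Men1 encodes menin, the adaptor of Kmt2a and Kmt2b, and its differences of 0.06 ± 0.09, -0.01 ± 0.09 and -0.09 ± 0.09 did not pass. Prdm2 (RIZ), a PR-domain protein described as an H3K9 methyltransferase (chr4:143107391-143212995, minus strand, ENSMUSG00000057637), fell in all 3 subsets. In thymus Prdm2 was at 126, 124 and 120.5 CPM in the WT, 134, 123, 117 and 114 in the Het and 97.96, 98.4, 109 and 108 in the KO libraries. In naive cells it was at 138, 141, 131 and 127 CPM in the WT, 127, 129, 134 and 143 in the Het and 108, 126, 122 and 116 in the KO libraries. In memory cells it was at 137, 138, 128 and 119 CPM in the WT, 136, 133, 131 and 123 in the Het and 107, 112, 111 and 107 in the KO libraries. The KO libraries lay below every WT library in each subset, by the narrowest margin in naive cells. Against WT the log2 fold changes were -0.25 ± 0.07 (adjusted p = 0.00757), -0.19 ± 0.06 (adjusted p = 0.0365) and -0.25 ± 0.06 (adjusted p = 0.00295). The naive call was lost when WT naive replicate 1 or 2 or KO naive replicate 1 or 4 was left out, with adjusted p up to 0.154, with no filter on low counts (0.169) and with only the libraries compared (0.0736).

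Smyd2 and Smyd3 are SET-MYND enzymes that methylate non-histone proteins as well as histones. Smyd2 rose in thymus, with WT libraries at 7.72 to 9.29 CPM and KO libraries at 11.01 to 15.7 (0.64 ± 0.16, adjusted p = 0.00281), and in the spleen gave 0.30 ± 0.16 and -0.24 ± 0.14 without passing. It shares 814 exonic bases with Gm37422 on the opposite strand, and whether the counting used strand is not given in the sources used here. Smyd3 fell in memory cells, with WT libraries at 17.8 to 26.4 CPM and KO libraries at 16.1 to 17 (-0.33 ± 0.12, adjusted p = 0.038), a call lost without WT memory replicate 1 or 3 or KO memory replicate 1, 2 or 4 (adjusted p up to 0.227) and also with DESeq2 (0.0508) or no filter on low counts (0.0611). Kmt2e, Setd5 and Setd7 passed in no subset, and their differences ran from -0.25 ± 0.16 for Setd7 in thymus to 0.03 ± 0.06 for Kmt2e in memory cells.

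Of the 5 tested genes grouped here as H3K9 methyltransferases, apart from Prdm2 above, Suv39h1 passed in thymus and the other 4 passed in no subset. Suv39h1 makes the H3K9 trimethylation of pericentromeric heterochromatin (chrX:8061171-8074760, minus strand, ENSMUSG00000039231). It was at 42.8, 46.6 and 52.3 CPM in the WT, 49.4, 44.5, 52.02 and 51.1 in the Het and 63.2, 74.7, 60.5 and 65.9 in the KO thymus libraries. The KO values were above all others, with a log2 fold change of 0.48 ± 0.11 (adjusted p = 0.000845). In naive and memory cells the genotypes overlapped, at -0.07 ± 0.10 and 0.19 ± 0.10. Suv39h1 shares 767 exonic bases with Gm14820 on the opposite strand. Ehmt1 and Ehmt2, the GLP and G9a enzymes of H3K9 mono- and dimethylation, lay between -0.11 ± 0.07 and 0.12 ± 0.07 over the 3 subsets and did not pass. Setdb1, which silences retroelements, gave 0.08 ± 0.08, -0.05 ± 0.08 and -0.08 ± 0.08. Setdb2 was too sparse for a precise value, with -0.63 ± 0.28 in memory cells and as few as 4 counts in a library.

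Among the 5 H3K36 methyltransferases, Nsd3 fell in all 3 subsets, Nsd2 rose in thymus and Setd2 rose in memory cells. Nsd3 (chr8:25601601-25719667, plus strand, ENSMUSG00000054823) dimethylates H3K36. In naive cells Nsd3 was at 537, 584, 561 and 596 CPM in the WT, 532, 584, 596 and 615 in the Het and 464, 458, 495 and 468 in the KO libraries. In memory cells it was at 494, 493, 479 and 484 CPM in the WT, 517, 496, 542 and 523 in the Het and 412, 387, 419.8 and 389 in the KO libraries. In thymus it was at 406, 422 and 376 CPM in the WT, 429.6, 381, 447 and 401 in the Het and 370.3, 347, 379.7 and 324 in the KO libraries. KO libraries were below all WT and Het libraries in both spleen subsets, and KO and WT overlapped in thymus. Nsd3 differed from WT by -0.27 ± 0.06 (adjusted p = 0.000472) in naive, -0.28 ± 0.06 (adjusted p = 0.000272) in memory cells and -0.18 ± 0.06 (adjusted p = 0.0434) in thymus. The thymus call was lost without WT thymus replicate 1 or 2 or KO thymus replicate 2 or 4 (adjusted p up to 0.224), with RLE scaling (0.056), with no filter on low counts (0.0594) and with the replicate block on the libraries compared (0.201).

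Nsd2, another H3K36 dimethyltransferase, rose in thymus, with WT libraries at 115 to 162 CPM, Het libraries at 145 to 181 and KO libraries at 193 to 246 (0.69 ± 0.14, adjusted p = 0.000376). In naive cells it was at 23.96 to 30.3 CPM in KO against 30.9 to 40.7 in WT libraries, a difference of -0.37 ± 0.14 (adjusted p = 0.0758) that passed when only these libraries were fitted (adjusted p = 0.0223). Nsd1 was at 0.02 ± 0.07, 0.15 ± 0.06 and 0.16 ± 0.06 and did not pass, although the memory value passed in 6 alternatives, among them DESeq2 (0.0491) and a sex term (0.0494). Setd2, which trimethylates H3K36 behind RNA polymerase II, passed in memory cells (0.20 ± 0.07, adjusted p = 0.0225), with WT libraries at 497 to 529.8 CPM and KO libraries at 565 to 632. That call was lost without WT memory replicate 1 or 3 or KO memory replicate 3 or 4 (adjusted p up to 0.133), and mean log centring lowered the value to 0.09 (adjusted p = 0.334). Ash1l, a trithorax-group enzyme of H3K36 dimethylation, did not pass, at -0.15 ± 0.07, 0.03 ± 0.06 and 0.09 ± 0.06. Its thymus value passed with mean log centring (adjusted p = 0.00712) and without KO thymus replicate 3 (0.0484).

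Among the 3 H4K20 methyltransferases, Kmt5a rose and Kmt5b fell in thymus, and Kmt5c rose in the spleen. Kmt5a (SET8), which makes H4K20 monomethylation and whose protein varies over the cell cycle (chr5:124439930-124462308, plus strand, ENSMUSG00000049327), was at 41.5, 37.9 and 42.7 CPM in the WT, 46.3, 40.1, 43.6 and 27.7 in the Het and 54.5, 69.6, 54.6 and 55.6 in the KO thymus libraries. The KO values stood above all others, with a log2 fold change of 0.53 ± 0.12 (adjusted p = 0.00101). In naive and memory cells it gave 0.24 ± 0.12 and 0.06 ± 0.11 and did not pass. Kmt5b and Kmt5c are the SUV420H enzymes of H4K20 di- and trimethylation. Kmt5b fell in thymus, with WT libraries at 146 to 164 CPM and KO libraries at 125 to 140.3 (-0.22 ± 0.06, adjusted p = 0.0147), a call lost without WT thymus replicate 1 (0.109) or KO thymus replicate 4 (0.0583) and with the replicate block on the libraries compared (0.0729). It shares 927 exonic bases with Gm16066 on the opposite strand.

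Kmt5c (chr7:4740115-4747514, plus strand, ENSMUSG00000059851) rose in both spleen subsets. In memory cells Kmt5c was at 20.8, 22.2, 22.7 and 19.7 CPM in the WT, 23.9, 22.4, 20.3 and 26.6 in the Het and 25.1, 32.5, 28.1 and 29.9 in the KO libraries. In naive cells it was at 21.4, 22.9, 22.8 and 20.6 CPM in the WT, 25.1, 20.7, 26.1 and 26.8 in the Het and 27.6, 27.03, 26.2 and 26.6 in the KO libraries. In thymus it was at 19.03, 25.8 and 26.9 CPM in the WT, 24.2, 23.02, 23 and 19.97 in the Het and 22.7, 27.04, 25.9 and 23.7 in the KO libraries. KO libraries exceeded all WT libraries in the spleen and overlapped them in thymus. Kmt5c differed from WT by 0.43 ± 0.10 (adjusted p = 0.00125) in memory, 0.29 ± 0.11 (adjusted p = 0.0479) in naive cells and 0.05 ± 0.11 in thymus. The naive call was lost when any 1 of the 8 WT or KO naive libraries was left out (adjusted p 0.0676 to 0.171) and with mean log centring (0.234), no filter (0.109) or a stricter one (0.0517).

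The 12 demethylases held 7 of the 11 members called lower in thymus. No demethylase was called higher there, in naive cells 2 were called higher and none lower, and in memory cells 2 were higher and 1 lower. The 7 lower calls in thymus are 58.3% of the 12, beside 6.77% of all genes. The spleen counts, at 16.7% higher in naive cells and 16.7% higher and 8.33% lower in memory cells, are near the shares of all genes given above. Kdm5b, a demethylase of H3K4 trimethylation (chr1:134560171-134635285, plus strand, ENSMUSG00000042207), changed most. In thymus Kdm5b was at 216, 195 and 201 CPM in the WT, 193, 199.7, 175 and 240.3 in the Het and 74.3, 84.3, 110.3 and 99.1 in the KO libraries. The highest KO library was well below the lowest of the 7 other libraries. The log2 fold change was -1.14 ± 0.10 (adjusted p = 7.52e-12), a level 0.453 times that of WT.

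In naive libraries Kdm5b was at 131, 127, 151 and 156 CPM in the WT, 143, 144, 140.3 and 151 in the Het and 126, 131, 130.0 and 141 in the KO libraries, a difference of -0.10 ± 0.09 with overlapping groups. In memory libraries it was at 117, 97.5, 102 and 112 CPM in the WT, 115, 107, 110.2 and 126 in the Het and 99.2, 98.99, 92.2 and 84.6 in the KO libraries, a difference of -0.19 ± 0.09 (adjusted p = 0.136). Neither spleen difference passed in the reported fit. The memory value passed with mean log centring (-0.31, adjusted p = 0.00856), with only the libraries compared (0.0474) and with the replicate block on them (0.0332). Its paralog Kdm5a fell in thymus by a smaller amount, with WT libraries at 495 to 507 CPM and KO libraries at 413 to 465 (-0.21 ± 0.06, adjusted p = 0.00755), and gave 0.05 ± 0.06 and 0.03 ± 0.05 in the spleen.

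The 3 genes of the Kdm4 family among the members, Kdm4a, Kdm4b and Kdm4c, which demethylate H3K9 and H3K36, fell in thymus. Kdm4a (chr4:118136957-118180043, minus strand, ENSMUSG00000033326) was at 141, 123 and 120.1 CPM in the WT, 120.1, 125, 116 and 115 in the Het and 104, 95.7, 101 and 95.3 in the KO thymus libraries. Every KO value was below every WT and Het value, and the log2 fold change was -0.37 ± 0.07 (adjusted p = 0.000206). In naive libraries Kdm4a was at 127, 111, 116 and 101 CPM in the WT, 120.1, 106, 117 and 121 in the Het and 118, 122, 109 and 113 in the KO libraries. In memory libraries it was at 124, 116, 112 and 120.2 CPM in the WT, 119, 124, 108 and 117 in the Het and 105, 116, 105 and 103 in the KO libraries. These groups overlapped, with differences of 0.03 ± 0.07 and -0.14 ± 0.07. The memory difference passed with mean log centring (-0.25, adjusted p = 0.00963). Kdm4b gave -0.39 ± 0.09 (adjusted p = 0.002) in thymus and Kdm4c -0.36 ± 0.08 (adjusted p = 0.0014). In the spleen neither passed, with values between -0.12 ± 0.08 and -0.06 ± 0.09.

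Kdm2b and Kdm6b fell in thymus and rose in the spleen. Kdm6b (JMJD3) removes methyl groups from H3K27 (chr11:69398508-69413675, minus strand, ENSMUSG00000018476), and shares 286 exonic bases with its antisense gene Kdm6bos. In thymus Kdm6b was at 422, 441 and 429.6 CPM in the WT, 330.4, 457, 358 and 318 in the Het and 272, 315, 299.9 and 387 in the KO libraries. In naive cells it was at 251, 239, 255 and 203 CPM in the WT, 252, 267, 297 and 243 in the Het and 349, 367, 337 and 356 in the KO libraries. In memory cells it was at 219, 243, 221 and 212 CPM in the WT, 190.1, 232, 193 and 235 in the Het and 255, 282, 279 and 294 in the KO libraries. KO libraries were all below WT in thymus and all above WT in both spleen subsets, and in thymus the Het libraries spread over both ranges. Kdm6b differed from WT by -0.44 ± 0.10 (adjusted p = 0.00193), 0.57 ± 0.10 (adjusted p = 2.26e-05) and 0.31 ± 0.10 (adjusted p = 0.0161). The memory call was lost without WT memory replicate 1 or 4 or KO memory replicate 4 (adjusted p up to 0.0711) and with mean log centring (0.128).

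Kdm2b, an H3K36 demethylase that binds unmethylated CpG islands and recruits a Polycomb complex (chr5:122870665-122989823, minus strand, ENSMUSG00000029475), followed the same order. In thymus Kdm2b was at 134, 144 and 144 CPM in the WT, 122, 145, 136 and 150.3 in the Het and 117, 110.2, 107 and 109.8 in the KO libraries. In naive cells it was at 80.5, 82.2, 93.2 and 91.2 CPM in the WT, 92, 93.9, 96.1 and 94.01 in the Het and 105, 123, 119.8 and 107 in the KO libraries. In memory cells it was at 98.6, 89.2, 76.99 and 84.1 CPM in the WT, 86.4, 84.3, 86.8 and 101 in the Het and 105, 113, 108 and 98.3 in the KO libraries. KO and WT libraries were separate in thymus and naive cells, and in memory cells KO replicate 4 lay within the WT range. The log2 fold changes were -0.35 ± 0.08 (adjusted p = 0.0013), 0.39 ± 0.08 (adjusted p = 0.000151) and 0.28 ± 0.07 (adjusted p = 0.00389), and mean log centring ended the memory call (0.0855). It shares 826 exonic bases with opposite-strand genes, Rnf34 among them. Its paralog Kdm2a did not pass, at -0.10 ± 0.06, 0.13 ± 0.05 and 0.07 ± 0.05.

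Kdm1a (LSD1), the amine oxidase that removes mono- and dimethylation of H3K4, fell in memory cells, with WT libraries at 201 to 225 CPM and KO libraries at 167 to 198 (-0.24 ± 0.07, adjusted p = 0.00554). In thymus and naive cells it gave -0.16 ± 0.07 and 0.00 ± 0.07. The thymus value of Kdm1a passed with mean log centring (adjusted p = 0.00642) and the replicate block (0.0496). The H3K9 demethylases Kdm3a and Kdm3b and the H3K9 and H3K27 demethylase Kdm7a passed in no subset in the reported fit. Kdm3b in thymus passed with mean log centring (-0.28, adjusted p = 0.00387), the replicate block (0.0415) and only the libraries compared (0.0392). It shares 3468 of its 14095 exonic bases with Gm26538 on the opposite strand, so its counts are uncertain. Kdm7a in naive cells passed with mean log centring (0.0322). Over the 18 members that passed in no subset, 95% intervals of the log2 difference were as narrow as -0.03 to 0.18 (Kdm2a, memory cells). They were as wide as -0.93 to 0.23 (Setdb2, naive cells), so small changes in these members were not detectable.

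**Figure D3:**
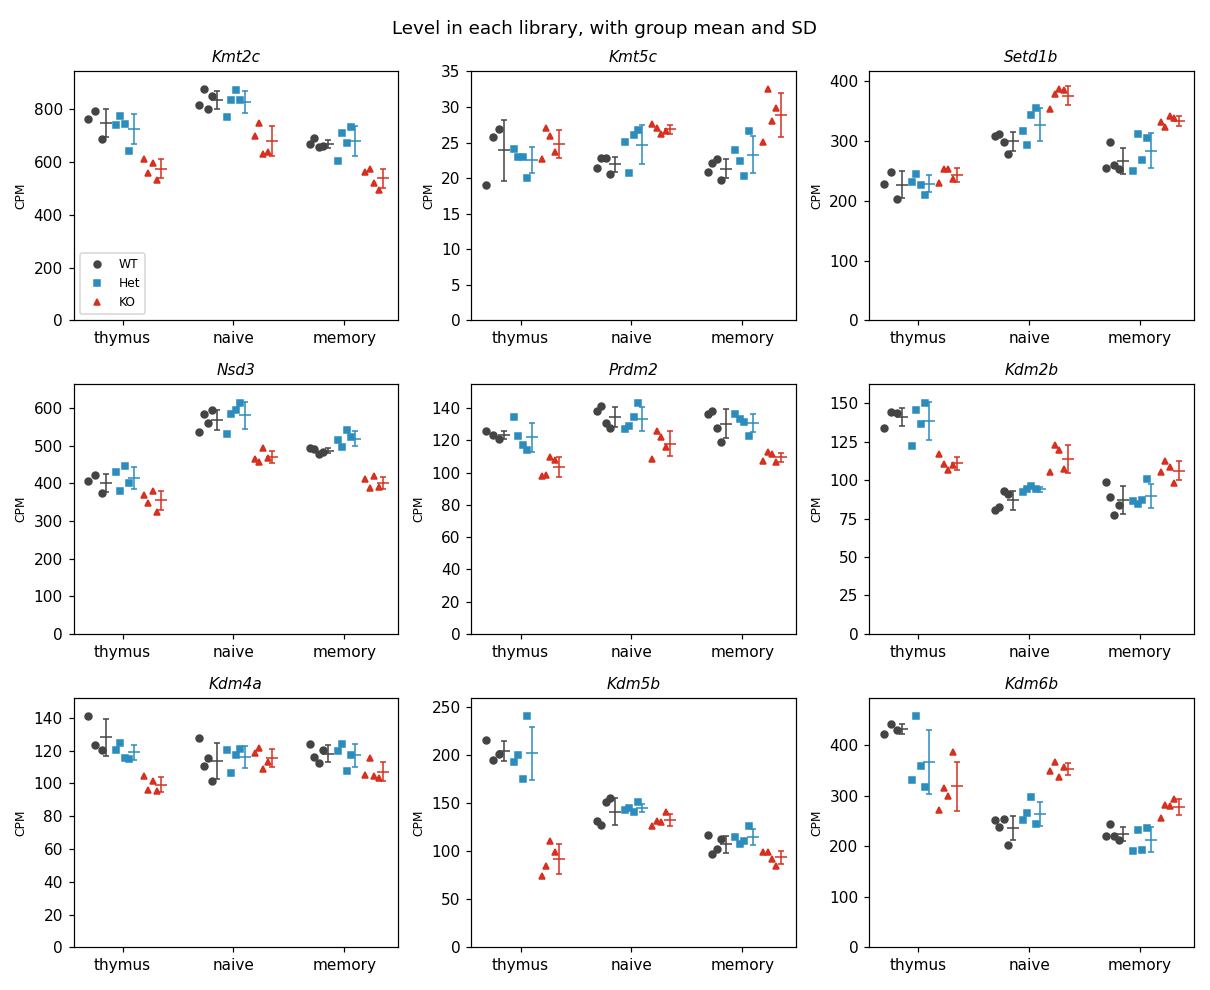
CPM in each library (points), with group mean and SD (bars), of 9 members in thymus, naive and memory cells for WT, Het and KO. Kdm5b is lower in KO than in WT or Het thymus libraries. Kmt2c is low in KO libraries of every subset, and Nsd3 is low in those of both spleen subsets. Kdm2b and Kdm6b cross from below WT in thymus to above it in the spleen.

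Promoter sequence is shown for 4 members called in KO against WT thymus, 2 lower and 2 higher, because their letters differ visibly in CpG density. Each run is the 250 bases before a RefSeq start (GRCm38.p6), read 5′ to 3′ on the gene's strand, with CG dinucleotides in capitals. Suv39h1 has 2 such windows and Kmt5a 3, of which 1 each is shown, and Kdm5b and Kmt2c have 1. Nsd2 and Smyd2, which rose more in KO thymus, are not shown. Nor are Kdm6b and Kdm4b, which fell more there than Kmt2c, so the choice does not stand for the other called members. The Kdm5b window is chr1:134559928-134560177 on the plus strand, Kmt2c chr5:25498784-25499033 on the minus strand, Suv39h1 chrX:8074761-8075010 on the minus strand and Kmt5a chr5:124439680-124439929 on the plus strand.
Kdm5b: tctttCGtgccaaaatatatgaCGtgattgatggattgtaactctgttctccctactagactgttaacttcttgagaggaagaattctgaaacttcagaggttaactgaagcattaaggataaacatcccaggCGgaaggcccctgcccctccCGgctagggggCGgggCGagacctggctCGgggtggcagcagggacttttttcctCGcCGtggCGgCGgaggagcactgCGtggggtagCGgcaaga
Kmt2c: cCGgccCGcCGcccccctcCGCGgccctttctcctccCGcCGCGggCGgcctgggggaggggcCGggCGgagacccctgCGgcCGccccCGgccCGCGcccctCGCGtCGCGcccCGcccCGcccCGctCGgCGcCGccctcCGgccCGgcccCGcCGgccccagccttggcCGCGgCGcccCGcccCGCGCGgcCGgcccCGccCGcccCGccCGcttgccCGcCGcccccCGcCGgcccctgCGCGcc
Suv39h1: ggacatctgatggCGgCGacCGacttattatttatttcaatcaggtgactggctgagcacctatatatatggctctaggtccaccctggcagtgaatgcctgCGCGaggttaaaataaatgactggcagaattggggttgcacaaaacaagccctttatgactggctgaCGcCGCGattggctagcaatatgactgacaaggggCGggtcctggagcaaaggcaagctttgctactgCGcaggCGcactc
Kmt5a: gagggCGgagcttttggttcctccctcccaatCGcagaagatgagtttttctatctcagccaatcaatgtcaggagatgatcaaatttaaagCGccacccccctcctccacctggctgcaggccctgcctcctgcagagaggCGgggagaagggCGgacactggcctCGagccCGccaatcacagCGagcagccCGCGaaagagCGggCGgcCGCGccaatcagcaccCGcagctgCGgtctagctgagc
The windows hold 13, 48, 11 and 16 CG dinucleotides in that order, beside a median of 6 over 32851 RefSeq windows of this length and 20.5 over 38 windows of the 25 members in the RefSeq table. Only 0.186% of all windows hold at least as many as Kmt2c, and 31.5% at least as many as Kdm5b. The motif CCAAT, searched on both strands, is found in the Suv39h1 and Kmt5a windows and not in the other 2, and in 33.8% of all windows and 39.5% of member windows. These matches describe letters only.

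The 4 members that rose in thymus stood beside a wider rise of proliferation genes. Of 24 tested proliferation genes, 16 were higher in KO thymus and none lower, 1 was higher in naive cells, and 9 were higher and 1 lower in memory cells. Mcm2, a replication helicase subunit, gave 0.72 ± 0.07, 0.27 ± 0.07 and 0.78 ± 0.07. The summed level of all 26 was 1661 to 2216 CPM in WT, 2026 to 2618 in Het and 3044 to 3710.4 in KO thymus libraries. In naive cells it was 446 to 501 in WT and 467 to 538 in KO libraries, and in memory cells 490.4 to 642 and 794 to 849. Its part in the rise of Nsd2, Suv39h1, Kmt5a and Smyd2 was not tested.

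Markers of T cell state also moved with genotype. Of 6 memory T cell markers, 5, 6 and 3 were higher in KO thymus, naive and memory libraries, with summed levels in naive cells of 73.9 to 135 CPM in WT and 310.2 to 804 in KO libraries. Of 5 naive T cell markers, 3 were lower in each subset and 1, Tcf7, was higher in naive cells (0.31 ± 0.06). Of the 10 CD8 T cell markers 2, 1 and 4 were lower, Cd5 in all 3 (-0.97 ± 0.14, -0.99 ± 0.15 and -1.81 ± 0.14). Immature thymocyte markers summed to 7.93 to 15.4 CPM in WT and 15.9 to 28.1 in KO thymus libraries, with Rag1 higher (1.21 ± 0.40). In memory cells Dntt, at 0 in every WT library, was called higher at a KO mean of 0.149 CPM, and Ptcra was at 0 in all spleen groups. Of 4 tested CD4 T cell markers none was called in thymus, Gata3 and Zbtb7b were higher in naive cells, and Zbtb7b was higher and Ctla4 lower in memory cells. The 5 CD4 markers summed to 51.9 to 64.99 CPM in WT and 87.6 to 104 in KO naive libraries, while Cd4 itself was at 0 in WT and Het naive and in all memory groups.

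B cell markers summed to 7.90 to 17.3 CPM in WT and 15.8 to 26.3 in KO thymus libraries, where Cd79b alone of 10 tested was called (1.26 ± 0.36). In naive libraries the sums were 14.9 to 113 in WT and 13.6 to 263 in KO, with KO naive replicate 4 highest. Without that library the naive calls of Kmt2c, Setd1b, Nsd3, Kdm2b and Kdm6b still passed. Those of Kmt5c (adjusted p = 0.0738) and Prdm2 (0.0837) were lost. In memory libraries the B cell sums were 17.9 to 171 in WT and 15.3 to 76.9 in KO, with no call. Natural killer and myeloid markers, with 1 tested gene each, gave no call and summed to at most 10.1 and 11.1 CPM. Ncr1 was at 0 in every group, Cd22 in WT and Het thymus, and Itgam in all thymus groups and in WT and KO naive libraries. The part of these state and cell type markers in the members' differences was not tested. Xist and Y-linked transcripts placed 24 libraries as male and 11 as female, with 2 of 4 female in WT naive and in WT memory and 1 in every other group. The 5 sex-linked genes gave no call, but within mixed groups their SE of 1.40 to 2.05 (log2) leaves little room for one. A sex term in the fit ended no call of a member in KO against WT and added Setd2 in naive cells (adjusted p = 0.0322) and Nsd1 in memory cells.

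Genes of the same pathways outside the 39 changed as follows in KO against WT. Beside the counts below, 11.9%, 11.1% and 12.8% of all tested genes were higher in thymus, naive and memory cells. The shares lower were 6.77%, 7.11% and 9.32%. Of 19 tested lysine methyltransferases and demethylases that are not members, 4, 5 and 5 were lower in thymus, naive and memory cells and none was higher. The list holds the sex-linked Kdm5c, Kdm6a, Kdm5d and Uty, and female libraries were fewer in KO than in WT spleen groups. Jmjd1c, a Jumonji protein related to Kdm3a and Kdm3b, gave -0.69 ± 0.07, -0.64 ± 0.07 and -0.71 ± 0.07, and the H3K9 demethylase Phf2 gave -0.47 ± 0.06, -0.24 ± 0.06 and -0.26 ± 0.06. Ezh2, the H3K27 methyltransferase, fell in naive (-0.54 ± 0.12) and memory cells (-0.38 ± 0.12), and Ezh1 fell in thymus (-0.28 ± 0.09). Of 11 tested COMPASS partners, 2 were higher in thymus, 1 was lower in naive and 1 was higher in memory cells, among them the core subunit Dpy30 in thymus (0.46 ± 0.11) and Psip1 in memory cells (0.56 ± 0.07).

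Of 11 tested partners of LSD1, 2 were higher and 2 lower in thymus, 3 higher in naive cells, and 4 higher and 1 lower in memory cells. The corepressors Rcor2 (0.61 ± 0.20, 1.79 ± 0.24 and 0.82 ± 0.23) and Rcor3 (0.48 ± 0.13, 0.34 ± 0.12 and 0.38 ± 0.12) rose in each subset. Of 10 heterochromatin readers and partners, 3 were higher and 1 lower in thymus, 1 lower in naive, and 2 higher and 1 lower in memory cells. Atf7ip, the partner of Setdb1, fell throughout (-0.58 ± 0.07, -0.38 ± 0.07 and -0.33 ± 0.07) while Setdb1 itself did not pass, and Cbx5, which encodes HP1 alpha, rose in thymus (0.69 ± 0.13) and memory cells (0.38 ± 0.13). Of 8 tested arginine methyltransferases, 2, 1 and 1 were higher and 1 was lower in memory cells, with Prmt5 at 0.47 ± 0.09 in thymus and 0.39 ± 0.08 in naive cells.

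KO was also compared with Het, a contrast that shares the KO libraries with the one above. In thymus 4 members were called higher and 13 lower (all genes 11.9% and 7.28%), in naive cells 3 and 3 (10.5% and 6.5%) and in memory cells 4 and 6 (11.6% and 8.59%). With mean log centring these were 4 and 19 in thymus (8.5% and 14.8% of all genes), 1 and 7 in naive (8.42% and 15% of all genes) and 1 and 16 in memory cells (9.04% and 18.6% of all genes). The 4 members called higher in memory cells became 1 without Het memory replicate 3 and 2 without Het memory replicate 1 or 2 or KO memory replicate 2 or 3. In thymus the values were -1.13 ± 0.09 for Kdm5b (adjusted p = 1.69e-12), 0.83 ± 0.15 for Smyd2, 0.57 ± 0.11 for Kmt5a, -0.34 ± 0.07 for Kmt2c, -0.35 ± 0.08 for Kdm4c and -0.32 ± 0.07 for Kdm2b. Kdm6b, called against WT in thymus, was not called against Het there, at -0.20 ± 0.10 (adjusted p = 0.15), which alone does not show that the contrasts differ. In naive cells Nsd3 gave -0.30 ± 0.06, Kmt2c -0.29 ± 0.07, Kdm6b 0.41 ± 0.10, Kdm2b 0.27 ± 0.07, Nsd2 -0.42 ± 0.14 and Setd1b 0.20 ± 0.07. In memory cells Nsd3 gave -0.37 ± 0.06, Kmt2c -0.34 ± 0.07, Kdm1a -0.27 ± 0.07, Prdm2 -0.26 ± 0.06, Kdm6b 0.38 ± 0.10 and Setd1b 0.24 ± 0.07.

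Het libraries, with 1 floxed allele, gave no call among members against WT with edgeR or DESeq2 in thymus (all genes 0%), naive (0%) or memory cells (0.00971%). At an unadjusted p under 0.05 edgeR gave 1, 0 and 1 members. Members' differences ran from -0.24 to 0.21 in thymus, -0.28 to 0.17 in naive and -0.27 to 0.23 in memory cells. For Kdm5b in thymus the Het difference was -0.01 ± 0.10, with a 95% interval of -0.20 to 0.18.

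The members also differed between subsets, which share the naive libraries between the comparisons below. From thymus to naive spleen cells, 9 were higher and 8 lower in WT (all genes 15.3% and 16.9%), 14 and 8 in Het (19.8% and 19.7%) and 23 and 7 in KO (22.4% and 21.7%). Nsd2 fell most, from 139.6 ± 23.6 to 33.7 ± 4.64 CPM in WT, 162 ± 15.4 to 35.3 ± 4.83 in Het and 226 ± 22.8 to 26.3 ± 2.75 in KO. Its log2 fold changes were -2.04 ± 0.14, -2.20 ± 0.14 and -3.10 ± 0.14. Kdm7a rose in each genotype, by 0.88 ± 0.08, 0.74 ± 0.08 and 0.75 ± 0.08. Nsd3 rose by 0.51 ± 0.06, 0.49 ± 0.06 and 0.41 ± 0.06. Suv39h1 fell in each genotype, at -0.52 ± 0.11, -0.59 ± 0.10 and -1.07 ± 0.10.

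For some demethylases the step from thymus to naive cells differed between KO and WT. Kdm5b fell by 0.53 in WT and 0.48 in Het on the log2 scale and rose by 0.52 in KO. Kdm6b gave -0.86 ± 0.10 in WT, -0.47 ± 0.10 in Het and 0.15 ± 0.10 in KO, the last not called. Kdm2b gave -0.69 ± 0.08, -0.56 ± 0.07 and 0.04 ± 0.07, the last not called. The difference between the KO and WT steps was tested as an interaction term, and 8 of 38 members passed, 6 upward and 2 downward, beside 6.34% of all genes. The term was 1.04 ± 0.13 for Kdm5b (adjusted p = 9.59e-07), 1.01 ± 0.14 for Kdm6b (9.35e-06), 0.73 ± 0.11 for Kdm2b (2.02e-05) and -1.06 ± 0.20 for Nsd2 (0.000812), and these 4 passed under all 24 alternatives. Kdm4a (0.39 ± 0.10, adjusted p = 0.0108) and Suv39h1 (-0.55 ± 0.15, adjusted p = 0.0173) passed too. Without WT thymus replicate 1 the number of members passing was 4, and without WT naive replicate 1 it was 5.

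**Figure D4:**
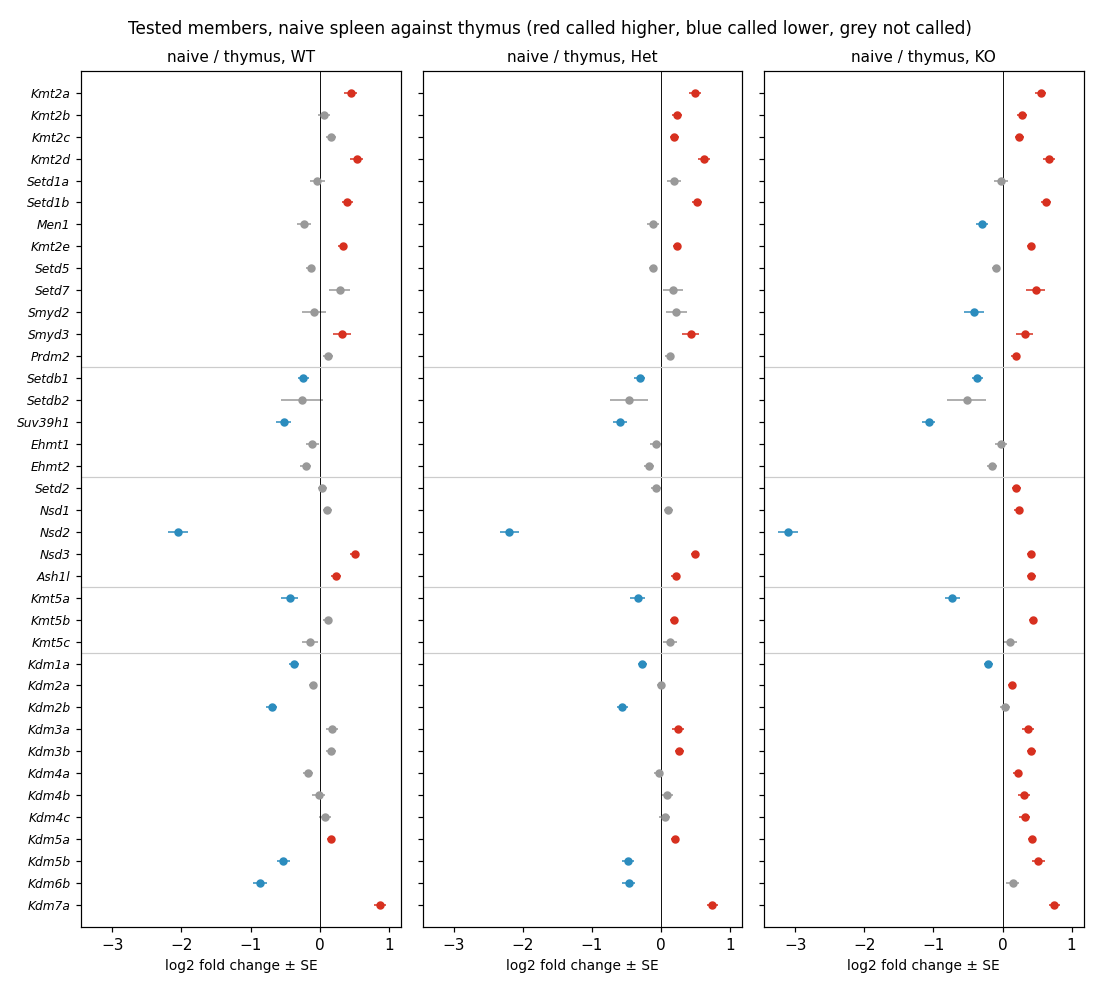
Log2 fold change ± SE of naive spleen against thymus for the 38 tested members in WT, Het and KO libraries. Nsd2 lies far left in all 3 genotypes, and Kdm5b is left of 0 in WT and Het and right of 0 in KO.

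From naive to memory cells, 2 members were higher and 9 lower in WT (all genes 7.68% and 7.38%), 2 and 11 in Het (8.31% and 8.57%) and 1 and 10 in KO (8.69% and 8.61%). Equally numbered WT naive and memory libraries deviated together. With the replicate block on these 8 libraries alone, 1185 of 8913 tested genes were higher and 1038 lower in WT memory cells. Of the members 17 then passed, 3 higher and 14 lower. The 11 members called without the block were all among them. In Het the count fell to 7 without Het naive replicate 3 and to 8 without Het naive replicate 4 or Het memory replicate 3 or 4. Nsd2 rose in each genotype, by 0.73 ± 0.14, 0.68 ± 0.14 and 0.88 ± 0.14. Smyd2 rose in WT (0.83 ± 0.15) and Het (0.47 ± 0.15). Kmt2c was lower in memory cells of each genotype, at -0.32 ± 0.07, -0.29 ± 0.07 and -0.34 ± 0.07, and Kdm5b at -0.40 ± 0.09, -0.34 ± 0.09 and -0.49 ± 0.09. Men1 gave -0.32 ± 0.09, -0.39 ± 0.09 and -0.40 ± 0.09, and Nsd3 gave -0.22 ± 0.06, -0.16 ± 0.06 and -0.23 ± 0.06. The interaction term between KO and WT for this step passed for no member with edgeR or DESeq2, beside 1.79% of all genes with edgeR. At an unadjusted edgeR p under 0.05 there were 3 members, and the share of all genes at that threshold was not counted.

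Over the means of the 9 groups, on the log2 CPM scale, the pattern of Kdm5b was most like those of Kdm4a (Pearson r = 0.778), Kdm4b (0.727) and Kmt2c (0.704). That of Kdm6b was most like Kdm2b (0.954), Ehmt1 (0.870) and Ehmt2 (0.710), and that of Kmt2c most like Kdm4c (0.872), Prdm2 (0.833) and Kdm4b (0.757). These are descriptions over 9 groups whose libraries, scaling and depth the genes share.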

How the data were processed

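RNA from sorted CD8 T cells was made into strand-specific TruSeq libraries and sequenced as single reads, per the labels' protocols. The submitters' processing notes list TopHat, TopHat2 (2.1.0) and HTSeq (0.9.1), with GRCm38 and mm10 as builds. The annotation release and strand setting of the counting are not given in the sources used here. The authors deposited raw counts per Ensembl gene in 1 table. Symbols, positions and exon lengths came from GENCODE M21 (GRCm38), and 17 members share exonic bases with a gene on the opposite strand.

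Counts were tested in R 4.3.3 with edgeR 4.0.16 (quasi-likelihood F test, robust, two-sided): genes kept by filterByExpr over the 9 groups, TMM factors 0.927 to 1.07, 1 mean per group over all 35 libraries, 26 residual degrees of freedom, Benjamini-Hochberg adjustment over 10296 genes and calls under 0.05. SE was obtained by dividing each log2 fold change by the root of its F, and 95% intervals follow from it. The test was tried on simulated data first. Libraries total 4809509 to 16879636 counts, so genes with few counts are imprecise. Replicates of a group were all distinct by their counts (51 pairs, lowest chi-square per gene 4.07).

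The members and lists were chosen with earlier results of these data known. Values in every library are given for members called in at least 2 KO against WT comparisons and for the 3 with the lowest adjusted p in each. Up to 6 called members are named in the other comparisons and up to 4 per list, the markers with values in the text among them. Likeness takes the 3 members with the lowest adjusted p. The library with the highest B cell sum was chosen after its value was seen.

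Alternatives were RLE scaling, mean log centring, no filter, CPM of at least 1 in 4 libraries, only the libraries compared, a sex term, DESeq2 1.42.0, the replicate block and each replicate left out. The block on only the libraries compared was added after seeing the data. Replicate numbers recur across groups; deviations of equally numbered libraries correlated over 0.1 in every pair for KO against Het naive (0.144 to 0.262) and memory against naive WT libraries (0.206 to 0.310), a pairing read from the data. WT thymus replicate 3 is male by its transcripts while WT naive and memory replicates 3 are female, so that number does not mark 1 animal across WT subsets. Blocked fits across genotypes join libraries of different animals under every number. Whether the other numbers mark single animals within a genotype is not labelled.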

Additional observations from a re-analysis of the deposited data

Results flagged for a closer look

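In 3 of 72 groups of 4 libraries examined for the 9 members given in full, 1 library stood far from the other 3, and chance gives about 1 in 20. Setd1b in WT memory replicate 2 was at 298 CPM, with the next library at 260.5. Kdm2b in Het memory replicate 4 was at 101 CPM, with the next at 86.8. Kdm4a in KO memory replicate 2 was at 116 CPM, with the next at 105.

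For 8 members the step from thymus to naive cells differed between KO and WT by an interaction term (log2, KO step minus WT step). The terms were 1.04 ± 0.13 for Kdm5b, 1.01 ± 0.14 for Kdm6b, 0.73 ± 0.11 for Kdm2b, 0.39 ± 0.10 for Kdm4a, 0.32 ± 0.09 for Kmt5b and 0.27 ± 0.08 for Kdm5a. They were -1.06 ± 0.20 for Nsd2 and -0.55 ± 0.15 for Suv39h1. Kdm5a passed in 11 of 24 alternatives (adjusted p up to 0.103), Kmt5b in 19 (0.0892), Suv39h1 in 21 (0.0639) and Kdm4a in 23 (0.0729, without WT thymus replicate 1).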

How the results depend on the processing

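Of 32 calls of single members in KO against WT, 24 passed under every alternative run. Over 529 values of such calls under alternatives, 485 passed, 44 did not and 0 changed direction. Counts of members called, both directions together, stayed within 1.5 times of the reported count, with these exceptions. KO against Het memory libraries gave 17 with mean log centring in place of 10. With the replicate block on only the libraries compared, memory against naive gave 17 in place of 11 in WT and 17 in place of 11 in KO. Leaving out 1 replicate gave 7 to 12 for memory against naive Het libraries in place of 13, and 4 to 9 for the naive against thymus interaction in place of 8. Apart from the construction of each alternative (fewer libraries, another scaling), the cause was not tested. With the replicate block over all libraries, KO against WT gave 18, 9 and 11 members in thymus, naive and memory cells in place of 15, 7 and 10, and KO against Het naive libraries 8 in place of 6. Every library correlated best with its own number in KO against WT naive, naive against thymus KO and memory against naive KO libraries, a hint from the data and not the design. Setdb2, Setd7 and Smyd2 had too few counts for small changes to be detected.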
